A study of Arabidopsis thaliana with 12 samples.

Results

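Distal regions of a tagged DELLA protein are described here, that is, places in the Arabidopsis thaliana genome where the protein was found by chromatin immunoprecipitation and that lie far from every protein-coding gene. A region was a merged nuclear interval that held a peak in both gai-YPet libraries and touched no peak of an untagged library. It was called distal when its summit, the mean position of the highest peak of each list, lay more than 1000 bp from every annotated protein-coding gene. By this rule 1416 of 5755 nuclear regions were distal, 2434 lay beside a gene (outside genes but within 1000 bp) and 1905 lay inside a gene. The members were therefore chosen by the peaks of gai-YPet and Ler, and every value of those peaks at them is given as a description without a test.

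The study asked how gibberellins set ovule number through the DELLA protein GAI and the boundary factor CUC2. Inflorescences of the main stem, with open flowers and the oldest closed buds taken off, were collected from 3 genotypes, and an anti-GFP antibody was used on crosslinked chromatin. Growth was at 22 °C in long days (16 h light, 8 h dark), and each of the 2 independent biological replicates per genotype used 1.8 g of tissue. The gai-YPet cuc2-1 plants carried pGAI:gai∆17-3xYPet in the cuc2-1 mutant, the gai-YPet plants carried the same transgene without cuc2-1, and the Ler plants carried no transgene. In the transgene, the GAI promoter drives a GAI protein that lacks 17 residues and is fused to 3 copies of a yellow fluorescent protein, so the tag marks sites only in cells where that promoter is active. All plants, the untagged ones included, were of the ecotype Landsberg erecta, which carries a mutation in ERECTA. Both tagged genotypes carry the same designation in the labels, L306, and the labelled tissue could not be checked against marker genes because peak lists hold no expression values.

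DELLA proteins are nuclear repressors of gibberellin responses. Gibberellin leads to their degradation, and forms that lack the DELLA motif, such as the one tagged here, resist it. DELLA proteins have no classical DNA-binding domain and reach chromatin through transcription factors. Whether a partner protein held the tagged protein at a given region, and which one, was not measured here. CUC2, of the NAC family of transcription factors, marks the boundaries between organs and takes part in the start of ovule primordia on the placenta. Plant genes are often controlled from the DNA just before their start, but some, the floral and meristem regulators among them, also have control elements several kilobases away, in long gaps between genes.

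Peaks were called for each replicate on its own, and the lists held 8193 and 3666 peaks in gai-YPet cuc2-1, 7042 and 11289 in gai-YPet, and 234 and 406 in Ler, for replicates 1 and 2. Read totals are not part of a peak list, so sequencing depth is unknown here, and the length of a list is no measure of how much protein was bound. Each fold below is the enrichment that the authors' peak caller gave a peak, and it ranks peaks within 1 list only, so no order between lists is read from it. Strength is used below for how high a region ranked: its best peak was given a percentile by q-value in each gai-YPet list, and both percentiles were averaged. Inflorescences are a mix of cell types, so fewer cells with the protein at a site and less of it per cell cannot be told apart.

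Distal regions were similar to the others in height and width. Their median width was 606.5 bp, against 665.5 bp for regions beside genes and 660 bp for those inside genes. Their median strength was 65.9, against 65.2 beside genes and 61.0 inside genes. The median fold at distal regions was 3.59 in gai-YPet replicate 1 and 3.66 in replicate 2, against 3.49 and 3.56 beside genes and 3.25 and 3.33 inside them. Distal folds ran from 1.61 to 15.03 in replicate 1 and from 1.31 to 9.16 in replicate 2, so the class holds both weak peaks and some of the highest of the genome. The share of regions that were distal lay between 21.4% on chromosome 3 and 26.1% on chromosome 2.

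Most distal regions were only moderately far from a gene. The median distance from the summit to the nearest protein-coding gene was 1770.5 bp, and 820 of the 1416 lay within 2000 bp. There were 250 beyond 3000 bp (17.7%), 54 beyond 5000 bp (3.81%) and 2 beyond 10000 bp. The gap around a distal region, from one flanking gene to the next, had a median length of 5782 bp over the 1416 regions. A gap with several regions was counted once for each of them. At the threshold itself, the members just inside were beside PAO5, a polyamine oxidase gene, at 1003 bp, with folds of 3.01 and 2.59 in gai-YPet, and beside AT5G03380 at 1004 bp, with 2.42 and 2.74. Those just outside were beside ZFP10, a zinc finger gene, at 1000 bp (3.01 and 3.14), and MYB47, a MYB factor gene, at 998.5 bp (2.62 and 3.02). The folds of these few regions were alike on both sides, and they describe only the edge of the class.

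Distal regions made up 24.6% of all regions (95% Wilson interval 23.5% to 25.7%), and DNA more than 1000 bp from every protein-coding gene made up 25.5% of the nuclear bases. DNA beside genes held 42.3% of the regions in 20.4% of the bases, and genes held 33.1% in 54.1%. Per megabase there were 46.6 distal regions, 100.2 beside genes and 29.5 inside genes. These averages covered a split between gene-rich and gene-poor stretches. In a window of 100 kb around the summit, a median of 25 protein-coding genes surrounded a distal region, against a median of 11 around all distal bases. Only 35 of the 1416 distal regions (2.47%, 95% Wilson interval 1.78% to 3.42%) lay in windows with fewer than 10 genes, where 45.2% of all distal DNA is found. This share was 9.26% without gai-YPet replicate 2 and 2.27% without replicate 1. Windows with 20 or more genes held 1222 of them (86.3%, 84.4% to 88.0%) and 36.2% of the distal DNA. Gene-poor windows in Arabidopsis are mainly the stretches around the centromeres, which are rich in transposons and other repeats.

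Counted by length, distal DNA in gene-rich windows was as dense in regions as the DNA beside genes. There were 111 distal regions per megabase there, against 110 per megabase beside genes and 30.1 inside genes. In gene-poor windows the distal density was 2.55 per megabase, against 12.4 beside genes and 18.0 inside genes. Regions of the gai-YPet cuc2-1 lists, built by the same steps, also lay mostly in gene-rich windows. Of 3187 regions in both mutant lists and no Ler list, 809 were distal (25.4%, 95% Wilson interval 23.9% to 26.9%). Of those, 42 (5.19%, 3.86% to 6.94%) lay in gene-poor windows and 673 (83.2%, 80.5% to 85.6%) in gene-rich ones. The gene-poor share was thus higher than the 2.47% (1.78% to 3.42%) of gai-YPet. All but 25 of the 809 overlapped a gai-YPet peak, so they are mostly the same sites and no separate support. How well repeats could be mapped was not tested, so a low density in gene-poor DNA and a lack of uniquely placed reads there cannot be told apart.

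**Figure D1:**
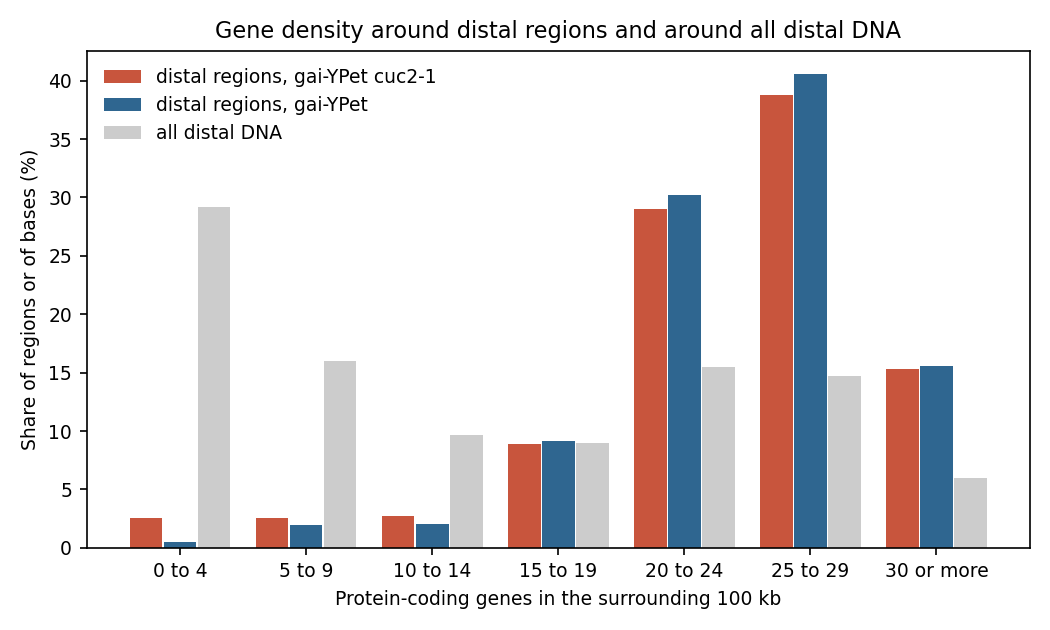
Gene density around distal regions of gai-YPet cuc2-1 and gai-YPet and around all distal DNA. The x axis gives the number of protein-coding genes in the surrounding 100 kb and the y axis the share of regions or of distal bases in percent. The regions of both genotypes gather in windows with 20 or more genes (83.2% in gai-YPet cuc2-1 and 86.3% in gai-YPet), while distal DNA is spread to windows with few genes.

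Being far from a protein-coding gene does not mean being in unannotated DNA, so the other annotated genes were looked up. Long non-coding RNA genes held the summit of 88 distal regions (6.21%, 95% Wilson interval 5.07% to 7.59%), against 1.21% of distal bases. Within gene-rich windows the shares were 6.22% of the regions and 2.26% of the distal bases. Counting those within 1000 bp, 212 regions (14.97%) had a long non-coding RNA gene in or near them, against 6.13% of distal bases, and in gene-rich windows 15.1% against 11.3%. Of the 809 distal regions of gai-YPet cuc2-1, 61 (7.54%) had the summit in such a gene. Pseudogenes, which in this annotation include many transposon remnants, showed the reverse. They held 2 distal summits (0.141%), against 29.4% of distal bases, and 0 of 1222 in gene-rich windows, against 11.8% of the distal bases there. The upper limit of the Wilson interval for the share over all 1416 was 0.514%. How well reads could be placed in pseudogenes was not tested. Few regions there and a lack of uniquely placed reads cannot be told apart, in gene-rich windows too. In gai-YPet cuc2-1, 24 of the 809 (2.97%) lay in a pseudogene. Summits lay in a miscellaneous RNA gene 15 times (1.06%, against 0.769% of distal bases) and in another non-coding RNA gene 5 times (0.353%, against 0.379%), both near the base share. They lay in a transcribed pseudogene 2 times (0.141%, against 2.36% of distal bases). In a tRNA or microRNA gene they lay 0 times (upper Wilson limit 0.271% for each), and these genes hold only 0.0349% and 0.0765% of distal bases. No gene of any of these 7 types lay within 1000 bp of 1103 distal regions (77.9%), so most distal regions were in DNA with no annotated gene of any of these kinds nearby. The same share over distal bases is not given, so the count is a description.

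MicroRNA genes stood close to 19 distal regions (1.34%, against 0.842% of distal bases, and in gene-rich windows 1.39% against 1.52%). Of 202 microRNA genes with distal DNA within 1000 bp, 19 (9.41%) had a distal region in that reach, so the share was near that of gene-rich distal DNA, and the genes are given by name as a description. MicroRNAs are short RNAs that guide the cleavage or silencing of messenger RNAs, and several of the families named here control flower and leaf development. Below, folds are those of replicates 1 and 2.

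The highest of these regions lay 654 bp from MIR172b, on chromosome 5 from 1186045 to 1188894 (build TAIR10), in the gap between AT5G04270 and AtRZ-1c. Its folds were 7.60 and 6.0 in gai-YPet cuc2-1 and 9.70 and 7.61 in gai-YPet, and in each list it ranked at or above the 97.7th percentile. MIR172 RNAs act on AP2 and related factors in floral organ identity and flowering time. Members of the MIR166 family, which restrict the HD-ZIP III factors that set the upper side of organs and the meristem, came next. The region 252 bp from MIR166a (chromosome 2, 19175550 to 19177695) had folds of 4.90 and 3.62 in gai-YPet cuc2-1 and 7.24 and 6.41 in gai-YPet. Close to MIR166d (chromosome 5, 2839688 to 2840541) the folds were 5.97 and 3.83 in gai-YPet cuc2-1 and 7.71 and 5.96 in gai-YPet. Both regions had a peak in all 4 tagged libraries, as did those of the other 3 members named by rank. At MIR404 (chromosome 1, 11230790 to 11231631) the folds were 4.85 and 4.09 in gai-YPet cuc2-1 and 6.59 and 7.06 in gai-YPet. MIR396b, whose RNA acts on growth-regulating factors, had a region 839 bp away (chromosome 5, 13610738 to 13613054) with 4.61 and 2.75 in gai-YPet cuc2-1 and 6.62 and 5.64 in gai-YPet. MIR169c, of the family that acts on NF-YA factors, had one 773 bp away (chromosome 5, 15871520 to 15872031) with 5.20 and 3.12 in gai-YPet cuc2-1 and 6.25 and 4.97 in gai-YPet.

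The other 13 were weaker, with strengths from 25.2 to 82.2, and lay near MIR156c, MIR5026, MIR159a, MIR172a, MIR157c, MIR166g, MIR161, MIR167a, MIR163, MIR399c, MIR4240, MIR319c and MIR164b. The median strength of all 19 was 72.8, against 65.9 for all distal regions. A peak was present at 17 of the 19 in gai-YPet cuc2-1 replicate 1 and at 10 in replicate 2, shares of 89.5% and 52.6%. These lay near the shares over all nuclear regions, 90.1% and 50%, so they are not a result about microRNA genes. The 2 regions with no mutant peak were those of MIR161 (folds of 3.04 and 2.99 in gai-YPet) and MIR164b (2.47 and 2.35 in gai-YPet, chromosome 5, 286591 to 287196). MIR164 RNAs act on CUC1 and CUC2. These 2 were singled out after their values were seen, and both were weak in gai-YPet as well, with strengths of 51.7 and 25.2.

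**Figure D2:**
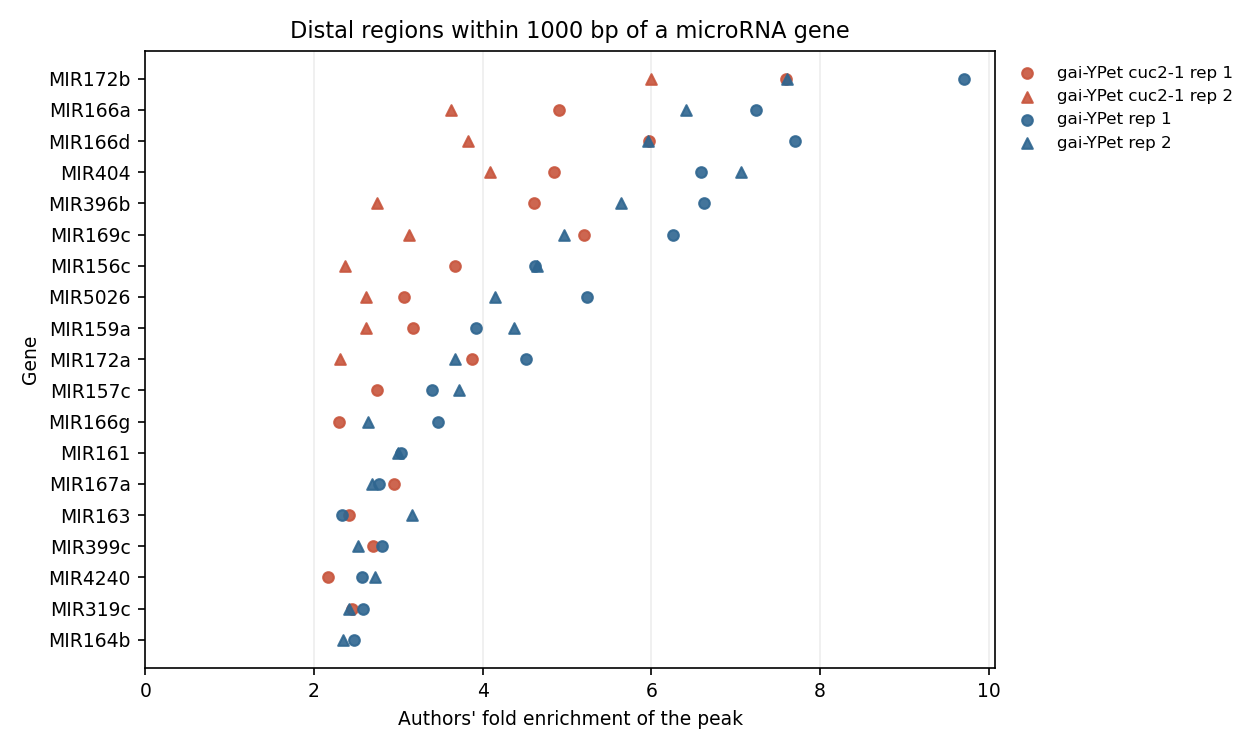
Distal regions within 1000 bp of a microRNA gene, ordered by strength. The x axis gives the authors' fold enrichment, with 1 point per library (circles replicate 1, triangles replicate 2), and a missing point means no peak. All 4 libraries have a peak at the upper 10, and MIR161 and MIR164b have points of gai-YPet only.

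The strongest distal regions were long, high and present in all 4 tagged libraries. The first lay on chromosome 5 from 6382023 to 6383785, 2573 bp from LUL3, which encodes a RING-type ubiquitin ligase, with AT5G19090 on its other side. Its folds were 9.23 and 8.22 in gai-YPet cuc2-1 and 13.0 and 8.78 in gai-YPet. Between CPD, a cytochrome P450 gene of brassinosteroid synthesis, and ATE1, an arginyltransferase gene of the N-degron pathway, a region from 1711119 to 1712671 on chromosome 5 had 9.35 and 7.71 in gai-YPet cuc2-1 and 15.03 and 7.70 in gai-YPet. The value of 15.03 was the highest of all distal regions in gai-YPet replicate 1. The widest of all distal regions (4366 bp) lay between AT4G15430 and HPL1, a hydroperoxide lyase gene, on chromosome 4 from 8832425 to 8836790. It had folds of 11.1 and 8.08 in gai-YPet cuc2-1 and 10.7 and 9.16 in gai-YPet.

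The next 5 by strength followed closely. Beside LGT8, a gene of the galacturonosyltransferase-like group (chromosome 1, 26398858 to 26401455), the folds were 9.04 and 7.57 in gai-YPet cuc2-1 and 11.3 and 7.60 in gai-YPet. Between EMS1, a receptor kinase gene needed for the anther tapetum, and ML4, a MEI2-like gene, they were 10.1 and 8.09 in gai-YPet cuc2-1 and 12.8 and 7.74 in gai-YPet (chromosome 5, 2290812 to 2292103), and an annotated long non-coding RNA gene lay within 1000 bp. The region between TPS10, of the trehalose-phosphate synthase family, and AT1G60160 had 9.22 and 6.77 in gai-YPet cuc2-1 and 12.2 and 8.96 in gai-YPet (chromosome 1, 22184396 to 22186377). A long non-coding RNA gene was also close to the region beside MEE3, a small MYB-like gene, with 8.96 and 6.13 in gai-YPet cuc2-1 and 10.9 and 8.88 in gai-YPet (chromosome 2, 9257908 to 9259846). Last came CWLP, a gene for a proline-rich cell wall linker protein, with 7.22 and 7.03 in gai-YPet cuc2-1 and 11.6 and 8.68 in gai-YPet (chromosome 3, 7796062 to 7798555). All 8 summits lay within 2573 bp of a gene, in windows of 21 to 34 genes.

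The 4 most remote regions differed among themselves in height and in the genes around them. The farthest, 15555 bp from AT2G06845 in a gap of 47966 bp on chromosome 2 (2737578 to 2738129), had folds of 3.94 and 2.73 in gai-YPet cuc2-1 and 5.24 and 4.24 in gai-YPet. The second, 14565.5 bp from AT4G08028 on chromosome 4 (4866285 to 4866575), had 2.34 in gai-YPet cuc2-1 replicate 1, no peak in replicate 2, and 2.19 and 2.27 in gai-YPet. These 2 lay in windows of 3 and 6 genes and were the only ones beyond 10000 bp. The third lay 9549.5 bp from AT5G35405, in the gap of 29654 bp before SOS2, a kinase gene of salt tolerance (chromosome 5, 13613630 to 13614614). It was strong, with 6.79 and 5.58 in gai-YPet cuc2-1 and 7.89 and 7.51 in gai-YPet, and lay in the same gap as MIR396b and its region. The fourth lay 9018 bp from AT1G71870, in a window of 22 genes in the gap before SUC1, a sucrose transporter gene, with 2.97 and 2.16 in gai-YPet cuc2-1 and 3.296 and 4.17 in gai-YPet (chromosome 1, 27043868 to 27044843).

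Distal regions were grouped by their nearest protein-coding gene, with a limit of 5000 bp. The 1184 genes reached in this way were 4.31% of the 27444 nuclear protein-coding genes and 11.0% of the 10738 genes that have distal DNA nearest to them. The counts that follow come from the same peaks that chose the regions, on lists made with earlier results of these data known, so they describe the neighbourhood and no test goes with them. Nearest genes with a transcription factor word in their names or synonyms lay beside 83 distal regions (5.86%), against 1.21% of all distal bases. Only 307 of the 27444 genes (1.12%) hold such a word. Factor genes named without one were missed, so these are not shares near all transcription factor genes. In gene-rich windows the shares were 5.81% of distal regions and 2.49% of distal bases.

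The gibberellin list held 35 genes, and 7 of them had a distal region, which is 26.9% of the 26 that have distal DNA nearest to them. They were GA20OX1, GA20OX2, GA20OX3 and GA3OX1, enzyme genes of the last steps of gibberellin synthesis, GASA1, a gibberellin-responsive gene, and the DELLA genes RGA and RGL1. These 7 genes had 12 regions, and all 12 had a peak in gai-YPet cuc2-1 replicate 1 and 9 in replicate 2. Among all nuclear regions, 90.1% had a peak in replicate 1 and 50% in replicate 2. Mutant-peak counts here and below rest on few regions and describe them only. The strongest lay 3952.5 bp from RGL1, which encodes a DELLA protein with a role in flowers and seeds, on chromosome 1 from 24743614 to 24744579, with folds of 7.18 and 6.0 in gai-YPet cuc2-1 and 10.4 and 6.39 in gai-YPet. At GA20OX3, the region from 2240850 to 2242212 on chromosome 5 had 7.44 and 4.75 in gai-YPet cuc2-1 and 8.73 and 7.02 in gai-YPet.

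GA20OX1, whose enzyme makes the precursors of active gibberellin in stems and flowers, had 3 distal regions on chromosome 4, 2 on one side and 1 on the other. The strongest (12993591 to 12994105) had 5.64 and 3.20 in gai-YPet cuc2-1 and 6.40 and 5.41 in gai-YPet, and its neighbour (12994357 to 12995663) had 5.55 and 2.48 in gai-YPet cuc2-1 and 5.19 and 4.73 in gai-YPet. The weakest of the 3 (12988942 to 12989489) had 1.86 in gai-YPet cuc2-1 replicate 1, no peak in replicate 2, and 2.95 and 3.09 in gai-YPet. GA3OX1, which encodes the enzyme of the final activating step, had 2 regions in a gap of 15522 bp. At the stronger one (chromosome 1, 5348025 to 5349238) the folds were 4.26 and 2.94 in gai-YPet cuc2-1 and 5.14 and 6.09 in gai-YPet. Distal regions near genes of the gibberellin list, RGL1, RGA and GASA1 included, were thus mostly of middle to high rank. Their strengths ran from 41.4 to 98.6 with a median of 80.8, against 65.9 for all distal regions.

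Auxin genes had the most distal regions of the 12 lists. Of 36 genes, 16 had one, which is 53.3% of the 30 with distal DNA, and they had 20 regions with a median strength of 77.2. A peak of gai-YPet cuc2-1 replicate 1 lay at 17 of the 20 and of replicate 2 at 15, against 90.1% and 50% of all regions. Among them were genes of auxin synthesis (YUC1, YUC2, YUC6), transport (PIN3, PIN7, LAX3, and the kinase gene PID), response (ARF6, ARF10, IAA1, IAA2, IAA7, IAA14, IAA17) and conjugation (GH3.3). IAA17, a repressor of auxin response, had the strongest, in the gap it shares with IAA3 (chromosome 1, 1133722 to 1135198), with 7.73 and 4.62 in gai-YPet cuc2-1 and 10.7 and 6.36 in gai-YPet. IAA2 and IAA7, of the same repressor family, face each other across a gap of 12510 bp that held 3 regions. The highest of them (chromosome 3, 8186446 to 8187533) had 6.94 and 3.65 in gai-YPet cuc2-1 and 8.76 and 6.04 in gai-YPet, and the lowest (8184168 to 8184952) had no mutant peak and 3.39 and 3.04 in gai-YPet. The efflux carrier gene PIN7 had a region (chromosome 1, 8177817 to 8178403) with 8.17 and 5.36 in gai-YPet cuc2-1 and 10.4 and 6.04 in gai-YPet. ARF6, an auxin response factor gene of flower maturation, had one (chromosome 1, 10692802 to 10693484) with 5.93 and 4.61 in gai-YPet cuc2-1 and 7.02 and 6.89 in gai-YPet.

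Of 31 genes for organ boundaries, carpels and ovules, 10 had a distal region, 35.7% of the 28 with distal DNA, and the 13 regions had a median strength of 72.0. Mutant peaks lay at 11 of the 13 in replicate 1 and at 8 in replicate 2, against 90.1% and 50% of all regions. FUL, a MADS-box gene of the fruit valves, had the strongest (chromosome 5, 24508280 to 24509175), with 5.67 and 4.03 in gai-YPet cuc2-1 and 6.45 and 5.79 in gai-YPet. MP, the auxin response factor gene that starts flower primordia, had a region 4120.5 bp away (chromosome 1, 6882175 to 6882796), with 4.48 and 2.53 in gai-YPet cuc2-1 and 5.62 and 3.97 in gai-YPet. At HEC1, a bHLH gene of the stigma and transmitting tract, the region (chromosome 5, 26763978 to 26764541) had 3.85 in gai-YPet cuc2-1 replicate 1, no peak in replicate 2, and 5.33 and 4.49 in gai-YPet. ETT, an auxin response factor gene that patterns the gynoecium, had 2 regions, the stronger (chromosome 2, 14330786 to 14331786) with 4.39 and 2.46 in gai-YPet cuc2-1 and 3.96 and 5.12 in gai-YPet. CUC3, the third CUC gene, also had 2, and both were held by all 4 lists. The stronger (chromosome 1, 28676147 to 28677030) had folds of 3.80 and 2.43 in gai-YPet cuc2-1 and 4.203 and 4.29 in gai-YPet. Its values are given because of the role of the family, and it was chosen after they were seen. CUC1 and CUC2 had no distal region nearest to them. ANT, an AP2-type gene that promotes ovule growth, had 2, in the gap of 11604 bp it shares with GRF2. Regions at CRC and BEL1, which act in carpels and in ovule integuments, had no mutant peak and folds of at most 3.32 in gai-YPet.

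Floral and meristem genes had 12 distal regions at 11 of 27 genes, 47.8% of the 23 with distal DNA, with a median strength of 58.2. AP2, which sets floral organ identity and represses flowering, had the strongest (chromosome 4, 17397058 to 17399341), with 8.31 and 5.63 in gai-YPet cuc2-1 and 11.1 and 8.13 in gai-YPet. KNAT2, a KNOX homeobox gene of the meristem and carpel, had a region (chromosome 1, 26575128 to 26575635) with 4.17 and 3.18 in gai-YPet cuc2-1 and 8.30 and 4.19 in gai-YPet. MADS-box genes of flower identity followed. AP1 had 2 regions in the same gap, the stronger (chromosome 1, 25988639 to 25989389) with 4.34 and 2.71 in gai-YPet cuc2-1 and 5.24 and 4.79 in gai-YPet. SEP3 had 1 (chromosome 1, 8597108 to 8597969), with 4.26 and 2.79 in gai-YPet cuc2-1 and 4.80 and 4.37 in gai-YPet. The others, near KNAT6, AG, FT, AGL42, SUP, TFL1 and STM, had strengths from 11.6 to 75.5. Mutant peaks lay at 10 of the 12 in replicate 1 and at 6 in replicate 2, against 90.1% and 50% of all regions. The regions of TFL1 and STM had no mutant peak.

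TCP genes, for growth regulators some of which bind DELLA proteins, had regions at 7 of 23 (46.7% of the 15 with distal DNA). Of the 7 regions, 5 had a peak in gai-YPet cuc2-1 replicate 1 and 2 in replicate 2, against 90.1% and 50% of all regions. TCP18, the branching inhibitor, had the strongest (chromosome 3, 6380177 to 6381516), with 4.94 and 3.20 in gai-YPet cuc2-1 and 5.77 and 5.54 in gai-YPet. TCP23 (chromosome 1, 13118628 to 13118949) had 4.65 in gai-YPet cuc2-1 replicate 1, no peak in replicate 2, and 4.41 and 4.49 in gai-YPet. TCP5 and TCP15 had folds of 4.31 and 3.94, and of 3.97 and 3.77, in gai-YPet. Regions at TCP14 and TCP2 had no mutant peak.

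Brassinosteroid genes had regions at 5 of 22 (33.3% of 15 with distal DNA). The receptor gene BRI1 had the strongest (chromosome 4, 18322145 to 18323444), with 6.96 and 5.65 in gai-YPet cuc2-1 and 8.82 and 6.09 in gai-YPet. The synthesis genes BR6OX2, CPD and DWF4 and the small bHLH gene PRE5 had weaker ones, with strengths from 35.9 to 74.5. CPD had this weak region (2.57 and 2.87 in gai-YPet, no mutant peak) at 1585 bp, in the same gap as the very strong one, whose nearest gene was ATE1. Cytokinin genes had few, 2 of 31 (8.70% of 23), at the synthesis gene IPT1, with 3.14 and 2.42 in gai-YPet cuc2-1 and 3.88 and 4.34 in gai-YPet, and at the response regulator gene ARR8, with 1.59 in gai-YPet cuc2-1 replicate 1, no peak in replicate 2, and 2.33 and 1.39 in gai-YPet. Of 20 jasmonate genes 1 had a region, MYB21, a regulator of stamens and petals (2.81 in gai-YPet cuc2-1 replicate 1, no peak in replicate 2, and 2.86 and 3.62 in gai-YPet). Of 18 light-signalling genes 2 had one, PIF7 (4.90 and 3.41 in gai-YPet cuc2-1, 5.81 and 6.24 in gai-YPet) and SPA1 (2.94 in gai-YPet cuc2-1 replicate 1, no peak in replicate 2, 2.90 and 3.14 in gai-YPet).

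Genes known mainly from other tissues were listed as a contrast. Of 9 root genes 3 had a distal region, 37.5% of the 8 with distal DNA. That share lay above, among others, gibberellin (26.9%), brassinosteroid (33.3%) and boundary, carpel and ovule genes (35.7%). It lay below auxin (53.3%), floral and meristem (47.8%) and TCP genes (46.7%), so the root list gave no clear contrast. WOX5, the homeobox gene of the root stem cell niche, had a strong one (chromosome 3, 3525656 to 3526267), with 6.19 and 3.19 in gai-YPet cuc2-1 and 8.02 and 6.01 in gai-YPet. SHR had 2.22 in gai-YPet cuc2-1 replicate 1, no peak in replicate 2, and 2.70 and 2.48 in gai-YPet, and PLT1 had no mutant peak and 2.91 and 2.02 in gai-YPet. None of 9 tapetum and pollen genes and none of 8 seed storage genes had one, but only 3 and 2 of them have distal DNA nearest to them. Genes with no distal DNA nearest to them could have no such region, so each count is also given over those that have any.

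**Figure D3:**
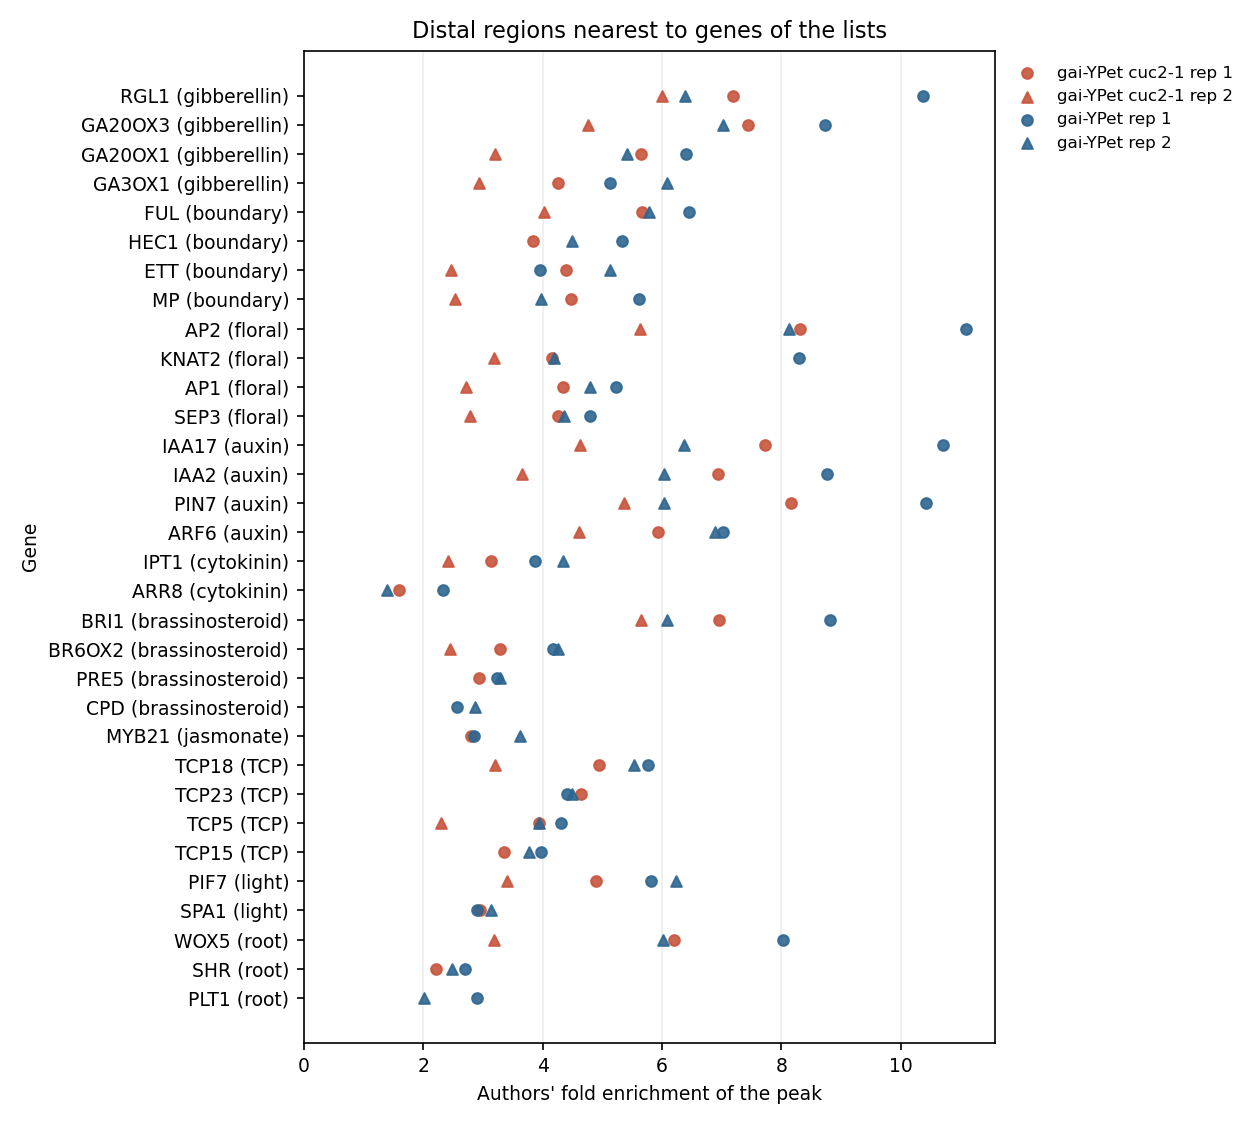
The strongest distal region within 5000 bp of up to 4 genes of each list. The x axis gives the authors' fold enrichment, with 1 point per library (circles replicate 1, triangles replicate 2), and a missing point means no peak. AP2, IAA17, PIN7 and RGL1 have the highest points, between 10.4 and 11.1 in gai-YPet replicate 1, while CPD and PLT1 have points of gai-YPet only.

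Distal regions lay in 1056 gaps between protein-coding genes. Most of these gaps, 786, held 1 region, while 199 held 2 and 71 held 3 or more, so 630 of the 1416 regions (44.5%) shared their gap with another. The largest number was 5, reached in the gaps between XYL1 and AT1G68570, between GATA13 and ARF10, and between HB-7 and AT2G46690. XYL1 encodes a xylosidase of the cell wall, GATA13 a GATA factor and ARF10 an auxin response factor. HB-7, a homeobox gene of drought responses, and AT2G46690 flank the gap that also holds MIR166a. In the XYL1 gap the folds ran from 3.12 to 4.36 in gai-YPet replicate 1 and from 3.18 to 5.29 in replicate 2, in the GATA13 gap from 3.77 to 6.88 and from 3.57 to 6.09, and in the HB-7 gap from 2.75 to 7.24 and from 2.40 to 6.41. All 5 regions of each gap had a peak in gai-YPet cuc2-1 replicate 1, and 3, 4 and 1 of the 5, in the same order, had one in replicate 2. For all nuclear regions these shares were 90.1% and 50%.

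Many genes near a distal region were also bound closer by. For 639 of the 1416 (45.1%), the nearest protein-coding gene had another region inside it or within 1000 bp, against 18.0% of all 27444 genes. Within gene-rich windows the share was 45.7% of distal regions, against 26.8% of distal bases whose nearest gene was bound in that way. At 989 (69.8%) at least 1 of the flanking genes was bound so, while at 427 neither flanking gene had a region inside it or within 1000 bp. Counting either flank raises the share by itself, and no share over distal bases stands beside it, so it is a description only.

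In the cuc2-1 mutant, distal regions held peaks about as often as regions elsewhere. A gai-YPet cuc2-1 peak of at least 1 list overlapped 1274 of the 1416 distal regions (89.97%, 95% Wilson interval 88.3% to 91.4%), against 90.3% of all 5755 regions. For replicate 1 the share was 89.8%, against 90.1% of all regions, and for replicate 2 it was 49.6%, against 50%. Peaks of both mutant lists lay at 700 distal regions, and over all regions that share was 49.8%. The distal shares lie near those of all regions, so the count is not a result about distal regions. The mutant lists were not used in choosing them, and the lists differed more from each other than the classes did.

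Whether a distal region had a mutant peak went with its height in gai-YPet. The 142 with none had a median strength of 31.9 and median folds of 2.62 and 2.41 in gai-YPet replicates 1 and 2, against 70.2, 3.83 and 3.84 for the 1274 with at least 1. All regions were ranked by strength and cut into 5 equal classes. In gai-YPet cuc2-1 replicate 1, the weakest class had a peak at 160 of 269 distal regions (59.5%, 95% Wilson interval 53.5% to 65.2%), against 60.7% beside genes and 67.1% inside genes. In the next classes the distal shares were 89.3%, 97.7%, 100% and 100%. In replicate 2 the distal shares were 4.46%, 13.2%, 39.9%, 76.8% and 100% from the weakest class to the strongest. The fourth class in replicate 2 had a peak at 218 of 284 distal regions (76.8%, 71.5% to 81.3%), against 83.8% (80.4% to 86.8%) beside genes and 85.6% (81.5% to 88.9%) inside genes. Shares differed more between classes of strength than between distal regions and the others of 1 class. Regions are not replicates, so no test is given for these differences, and with 1 list per replicate they compare lists.

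**Figure D4:**
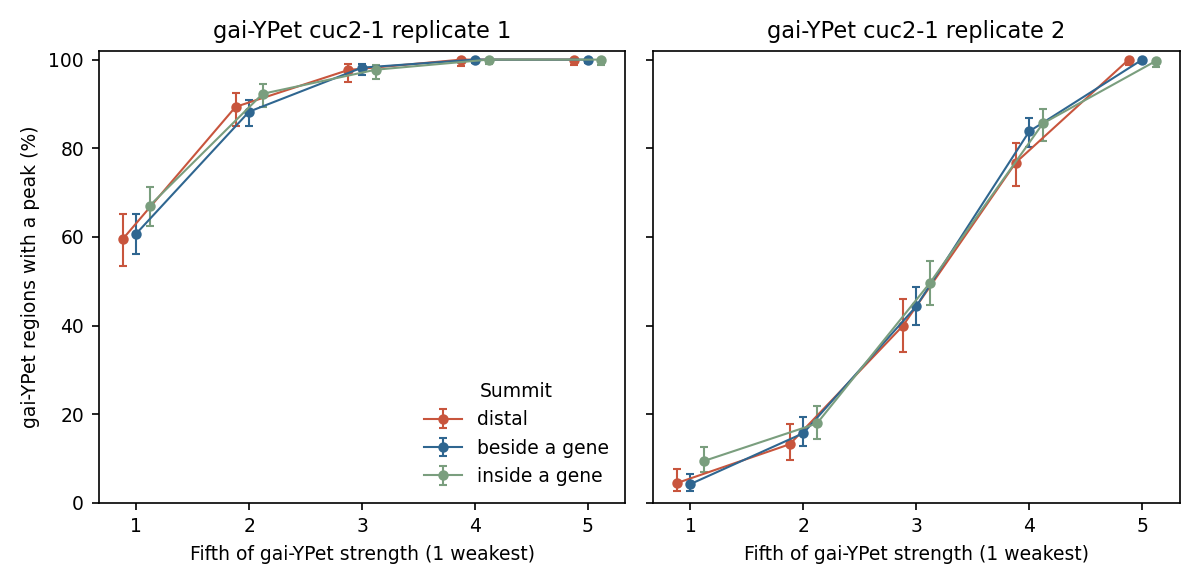
Share of gai-YPet regions with a gai-YPet cuc2-1 peak, by class of strength in gai-YPet (x axis, 1 weakest to 5 strongest), for distal regions and for those beside and inside genes. Points are shares in percent (y axis) and bars are 95% Wilson intervals. In both mutant replicates the share climbs with strength, to 100% of distal regions in the top class, and replicate 2 lies lower than replicate 1 in classes 1 to 4.

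Even the strongest distal regions without a mutant peak were therefore of middle rank. The 5 highest had strengths from 56.4 to 58.7. At AT5G57070 (chromosome 5, 23094127 to 23094538) the folds were 3.26 and 3.40 in gai-YPet, and at TCP14, which promotes growth and germination (chromosome 3, 17555900 to 17556251), they were 3.54 and 3.09. Between CYCD4;1, a D-type cyclin gene, and GRF8, which encodes a 14-3-3 protein (chromosome 5, 26145770 to 26146133), they were 3.34 and 2.95 in gai-YPet. Between ACS5, an ethylene synthesis gene, and CGR3, a pectin methyltransferase gene (chromosome 5, 26335719 to 26336579), they were 3.304 and 2.92, and at AT5G24879 (chromosome 5, 8551335 to 8551946) 3.73 and 2.76. The absence of a peak means that no peak passed the authors' threshold in either mutant list, not that the protein was absent.

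At the 700 distal regions that all 4 tagged lists held, the median within-list percentile was 83.8 and 58.0 in gai-YPet cuc2-1 and 81.9 and 88.7 in gai-YPet. With whole lists the genotypes overlapped, since gai-YPet cuc2-1 replicate 1 lay between the gai-YPet replicates. The mean difference was -14.4 percentile points. Because these regions were chosen by their gai-YPet peaks and percentiles come from lists of unequal length, it is a description without a test. It was -2.78 with lists of equal length, where both mutant lists lay below both gai-YPet lists, -2.67 without gai-YPet cuc2-1 replicate 2 and -27.4 without replicate 1. Across the 700 regions the order of folds was alike between lists, with Spearman's rho from 0.75 to 0.85 over the 6 pairs of lists. These points share libraries and local chromatin, and rho is given as a description.

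The genotypes were also compared by the share of each list's own nuclear peaks that were distal, with peaks that touch a Ler peak removed. It was 29.1% and 26.4% in gai-YPet cuc2-1 and 26.3% and 21.3% in gai-YPet, so the mutant lists were both above the gai-YPet ones, by little in the nearest pair. The difference of means was 3.98 percentage points (27.8% ± 1.90 in gai-YPet cuc2-1 and 23.8% ± 3.55 in gai-YPet, SD, n = 2 each, exact permutation test, two-sided p = 0.333, the smallest this design allows). The difference moved with the length and the reach of the lists. With lists of equal length it was 0.410, and in the stronger 50% of each list 0.818. Without gai-YPet replicate 2 it was 1.47. Peaks in gene-poor windows made up 22.8% and 10.4% of these distal peaks in gai-YPet cuc2-1 and 9.26% and 2.27% in gai-YPet. In windows with 10 or more genes, a limit chosen after seeing the data, the distal shares were 24.3% and 24.5% in gai-YPet cuc2-1 and 24.6% and 21.05% in gai-YPet, and the difference was 1.55.

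The untagged Ler plants measured the background of the antibody. With no peak removed, distal peaks made up 29.7% and 28.4% of nuclear peaks in gai-YPet cuc2-1, 27.4% and 21.4% in gai-YPet, and 89.3% (159 of 178) and 82.9% (329 of 397) in Ler. Tagged lists averaged 26.8% ± 3.68 (SD, n = 4) and Ler lists 86.1% ± 4.56 (SD, n = 2), and all 4 tagged lists lay below both Ler lists. The difference was -59.3 percentage points (exact permutation test over the 6 lists, two-sided p = 0.0667, the smallest that its 15 splits allow). Of the distal peaks, 23.96% and 17.98% in gai-YPet cuc2-1, 13.5% and 2.95% in gai-YPet, and 81.1% and 89.97% in Ler lay in gene-poor windows. The highest distal fold in Ler was 3.14 in replicate 1 and 3.34 in replicate 2. In gai-YPet cuc2-1 it was 11.1 and 8.22 and in gai-YPet 15.03 and 9.16. These maxima are given list by list, and no order between lists is read from them. Background peaks in untagged plants were thus mostly distal and in gene-poor DNA, where few members lay. The removal of regions on Ler peaks took away 12 of 1428 distal regions (0.840%), 7 of them in gene-poor windows.

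**Figure D5:**
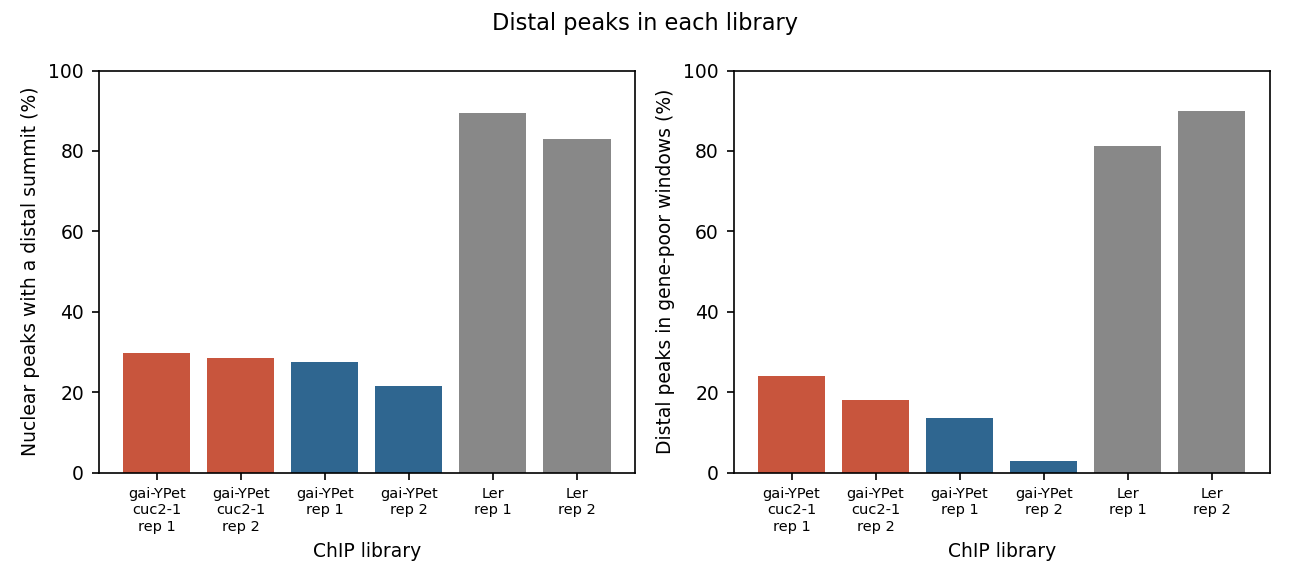
Distal peaks in each ChIP library. The left panel gives the share of nuclear peaks with a distal summit and the right panel the share of those distal peaks in gene-poor windows, both in percent with 1 bar per library. Both Ler bars stand above 80% in both panels, and all tagged bars stay below 30%.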

How the data were processed

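ChIP-seq peak lists of 6 ChIP libraries were used, 1 per replicate of 3 genotypes; the 6 input libraries have no list here. The tools named in the submitters' processing notes are MACS2, Bowtie2, bedtools, SAMtools and cutadapt, without versions or settings, and the build is TAIR10. In each deposited list a peak has a score, a fold enrichment ratio, and −log10 values of a p-value and a q-value, made by the authors. The score equals 10 times the −log10 q, truncated, in every line. The deposited fold and −log10 values of replicate 2 had damaged decimal points; they were read with 5 decimals, and the score relation then holds. Lists were paired with ChIP libraries by the list name in the labels. Depth is unknown, so shares carry 95% Wilson intervals that cover the counted peaks or regions only.

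Regions were built with overlaps of at least 1 bp. Genes came from a RefSeq table of assembly TAIR10.1, without strand, whose coordinates are not printed. Its fit was checked on each chromosome: region summits lay inside genes in 30.5% to 34.7% of cases, against 55.6% to 62.7% after a shift of 5000 bp. TAIR10 is the Columbia genome, and differences of Ler from it were not examined. Distal DNA was sampled at every 10 bp. All 269 genes of the 12 lists matched the table. The members and the lists were chosen with earlier results of these data known. Named regions were the 8 strongest, the 5 strongest without a mutant peak, the 4 farthest, up to 6 near microRNA genes, up to 4 per list by strength, and those at the threshold. Comparisons over lists used exact permutation tests; the one planned on percentiles at the members is not given, since their gai-YPet peaks chose them. Replicate numbers were not used as pairs in these tests, and whether they mark a shared batch was not settled. The region rule was tested on simulated lists, where 360 of 360 planted distal regions were recovered and 60 of 60 overlap counts matched bedtools 2.31.1. Transcription factor words were sought in symbols and synonyms, because the table gives no descriptions. Motifs were planned but not counted, for want of a genome sequence. Scripts ran under Python 3.11.15 with scipy 1.17.1, pandas 2.3.3, matplotlib 3.10.9 and numpy 2.4.6.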

Additional observations from a re-analysis of the deposited data

Results flagged for a closer look

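Peaks on the mitochondrial genome, which no comparison above uses, numbered 303 and 81 in gai-YPet cuc2-1 replicates 1 and 2, 126 and 20 in gai-YPet, and 0 and 4 in Ler, and the count of 303 is above that of both untagged libraries. What goes with it was not tested.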

How the results depend on the processing

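The number of distal regions was 818 with the stronger 50% of each list, 2257 beyond 500 bp, 596 beyond 2000 bp, and 1761 to 2383 with a gai-YPet list left out. Their share was 26.7% with a reciprocal overlap of 50%, 25.8% with the stronger 50%, 39.2% beyond 500 bp, 10.4% beyond 2000 bp, 19.2% when all annotated genes defined distance, and 21.3% to 26.3% with a gai-YPet list left out. The share with a mutant peak was 82.1% with a reciprocal overlap of 50%, 94.0% with the stronger 50%, 95.4% with tagged lists of equal length, and 49.6% to 89.8% with a list left out. The genes reached numbered 1809 with both flanking genes and 1307 to 1789 with a gai-YPet list left out, and the gene-poor share was 2.27% to 9.26%. The causes were not tested. No difference changed direction: leaving out lists gave 1.47 to 6.49 points between genotypes, -62.6 to -56.1 between tagged and Ler lists, and -27.4 to -2.67 for the percentile, which was -2.78 with lists of equal length. A check of whether replicate numbers pair the libraries gave a low value (Pearson's r across 2867 regions 0.12). Replicate 1 nevertheless had the higher distal share of nuclear peaks in each genotype, and a batch shared by replicate number was not tested. With replicate numbers as a block the values were 3.98 (exact p = 0.5) and -59.3 (exact p = 0.5), and the untested percentile difference was -14.4. With 4 lists no p below 0.333 can be had, and with 6 none below 0.0667, so these p-values say nothing of stability. Motif counts in windows of several lengths were not run, for want of a genome sequence. The alternatives on nearest genes and gene-poor windows were added after seeing the data.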

Other observations

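A few distal regions were seen in the mutant alone. Of the 809 distal regions of gai-YPet cuc2-1, 25 (3.09%, 95% Wilson interval 2.10% to 4.52%) overlapped no peak of either gai-YPet list. The same share over all mutant regions is not given here, so this count is not a result about distal regions. A missing peak means only that none passed the authors' threshold. The 25 were weak, with a median strength in the mutant lists of 12.8, against 68.2 for the rest, and 16 of the 25 lay in gene-poor windows. The strongest, chosen after its values were seen, lay on chromosome 3 from 13187287 to 13187705, 16014.5 bp from AT3G32200, with mutant folds of 2.42 and 2.76.

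Other gaps held many distal regions. Between AT1G56630 and PAP1, a MYB factor gene of anthocyanin synthesis, 4 regions lay in 6442 bp, with folds from 2.62 to 9.11 in gai-YPet replicate 1 and from 2.05 to 8.68 in replicate 2. The gap before SUC1 held 4 regions, with folds from 3.296 to 8.87 and from 3.04 to 5.93, and all 4 had a peak in both mutant lists. Between GRF2, a growth-regulating factor gene, and ANT, 4 regions had folds from 2.76 to 3.84 and from 2.38 to 3.996 in gai-YPet, and 4 of them had a peak in gai-YPet cuc2-1 replicate 1 and 1 in replicate 2. These gaps were named for their counts, after the values were seen. Among all nuclear regions, 90.1% had a peak in gai-YPet cuc2-1 replicate 1 and 50% in replicate 2.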
